A study of Mus musculus with 12 samples.

Results

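The NF-kB subunits and IkB proteins were described here through 10 mouse genes, which were taken by symbol and matched to Ensembl gene identifiers with a GRCm38 annotation. Of these, 5 encode IkB proteins (Nfkbia, Nfkbib, Nfkbie, Nfkbiz and Bcl3) and 5 encode subunits of NF-kB (Nfkb1, Nfkb2, Rel, Rela and Relb). They are 10 of 30994 genes with counts, and all 10 passed the filter on low counts in both tables of the study. SIM-A9 cells, a mouse microglial cell line from the C57BL/6 strain, were profiled by SLAM-seq, in which 4-thiouridine given for a short time marks the RNA made in that time. Every culture, controls included, first received polymixin B (polymyxin B) at 10 µM for 1 h, an antibiotic that binds bacterial endotoxin. C13 (AG2P145D/C13) at 10 µM, named an inhibitor of the kinase MOK by the series title, or the solvent DMSO was then given for 1 h. TDP-43, an RNA-binding protein, in aggregated form, or sham aggregates, were added at 5 µg/mL, and after 2.5 h 4-thiouridine was added at 100 µM for the last 90 min of 4 h. The 4 groups were C13 with TDP-43, C13 with sham, DMSO with TDP-43 and DMSO with sham. Each held 3 libraries that the labels call biological replicates. All are of a single line, and nothing else says how the replicates were separated, so p-values measure the spread between these libraries.

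NF-kB is a dimer of Rel-family proteins. In resting cells IkB proteins hold it in the cytoplasm, and stimuli such as cytokines, endotoxin or Toll-like receptor ligands activate the IkB kinase complex, which marks IkB for destruction and frees the dimer to enter the nucleus. Nfkbia, the gene of IkB-alpha, is itself a target of NF-kB, and the newly made protein takes the dimer back out of the nucleus, a negative feedback loop. In microglia, the resident macrophages of the brain, the pathway drives genes of cytokines and chemokines. The 5 IkB genes are not alike: Nfkbia, Nfkbib and Nfkbie encode the classical cytoplasmic inhibitors, while Nfkbiz and Bcl3 encode nuclear IkB proteins that act on transcription with the precursor-derived subunits. Nfkb1 and Nfkb2 encode precursors that are processed to DNA-binding subunits, and Rela, Rel and Relb carry the transactivation domains.

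Promoter windows from RefSeq (GRCm38.p6), each running from 250 bases before the annotated start to 50 bases after it, were available for 7 of the 10 genes, and Nfkb1, Relb and Nfkbiz had none. The windows were searched on both strands for the kB consensus, the site that NF-kB dimers bind. Of the 7 genes, 5 held a match in at least 1 window, and 8.46% of all 32851 windows and 9.55% of all 27025 genes did. A match describes letters only and is no evidence of binding in these cells. Shown are the IkB gene and the subunit gene with the largest nascent share, and Rela, whose window holds no match, all 5′ to 3′ on the strand of the gene with matches in capitals. The Nfkbia window is chr12:55492598-55492897 (minus strand), the first of 3 Nfkb2 windows is chr19:46304487-46304786 (plus strand) and the Rela window is chr19:5637291-5637590 (plus strand).
Nfkbia: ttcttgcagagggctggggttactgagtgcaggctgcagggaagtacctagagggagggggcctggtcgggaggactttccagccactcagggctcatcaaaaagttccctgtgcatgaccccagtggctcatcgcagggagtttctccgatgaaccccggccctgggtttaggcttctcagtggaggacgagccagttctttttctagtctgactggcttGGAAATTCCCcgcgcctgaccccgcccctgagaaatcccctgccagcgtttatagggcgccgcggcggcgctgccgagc
Nfkb2: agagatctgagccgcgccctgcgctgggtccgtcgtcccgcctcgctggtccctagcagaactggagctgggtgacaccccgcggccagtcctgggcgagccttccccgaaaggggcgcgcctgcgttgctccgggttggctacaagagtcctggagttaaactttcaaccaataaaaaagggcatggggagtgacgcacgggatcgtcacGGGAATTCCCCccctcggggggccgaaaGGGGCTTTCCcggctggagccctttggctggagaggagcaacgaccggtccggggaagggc
Rela: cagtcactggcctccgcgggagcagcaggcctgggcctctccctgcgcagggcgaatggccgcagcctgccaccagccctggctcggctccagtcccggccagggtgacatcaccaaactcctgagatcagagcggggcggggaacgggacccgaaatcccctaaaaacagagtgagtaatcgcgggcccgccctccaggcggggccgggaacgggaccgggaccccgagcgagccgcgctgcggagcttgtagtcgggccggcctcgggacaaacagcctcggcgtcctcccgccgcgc
The match of Nfkbia began 29 bases before the start. In Nfkb2 a pair of overlapping matches began 39 and 38 bases before the start and a further match began 11 bases before it. Of the genes not shown, Rel held overlapping matches that began 92 and 91 bases before the start, Nfkbie held 1 that began 106 bases before it, Bcl3 held 1 within the transcribed bases, and Nfkbib held none.

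Total reads per library ran from 17436397 to 41779882 and nascent reads from 552042 to 2722812, or 1.88% to 7.11% of a library. Values are given as CPM, counts scaled to a common library size, after TMM scaling within the nascent or the total table, so that a nascent CPM is relative to all nascent reads. C13 with sham replicate 3 and DMSO with TDP-43 replicate 3 stood apart from the other 10 on the first principal component of both tables, and what sets them apart was not tested. Some fold changes of members, but not all, are given with and without them. The 12 microglial markers summed to 897 to 1433 total CPM per library, with Tmem119 under 1 CPM in every group, while summed astrocyte, neuron and fibroblast markers reached at most 1.76, 4.01 and 0.141 CPM. Oligodendrocyte markers summed to 4.45 to 46.4 CPM, nearly all from Mbp, with Mog and Mag at 0. Counts of Nfkbiz and Relb were multiples of 4 and 3 in every library, a property with no stated reason, so intervals were computed after division by that factor and levels of different genes are not compared.

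Nfkbia (chr12:55489410-55492647, minus strand, GRCm38) stood out among the members and among all genes by the share of its reads that were called nascent. Its nascent share, nascent reads over total reads of the gene, was 63.3%, 67.6% and 45.3% in C13 with TDP-43, and 47.7%, 60.1% and 47.9% in C13 with sham. Cultures given DMSO had 54.5%, 59.1% and 56.3% with TDP-43 and 63.4%, 57.4% and 54.4% with sham. The 4 groups overlapped, and in 12 of 12 libraries Nfkbia had the largest share of the 10 genes. Its mean of 56.4% ± 6.89 (SD, n = 12) ranked 6 among 9204 genes with a mean of at least 100 total reads, whose median share was 2.69% and whose 99th percentile was 14.7%. Within a library, counting error was small beside these differences: the 95% Clopper-Pearson interval in C13 with sham replicate 1, the library with the fewest nascent Nfkbia reads, was 45.3% to 50.0%. Such intervals cover counting error only and take each read as independent.

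**Figure D1:**
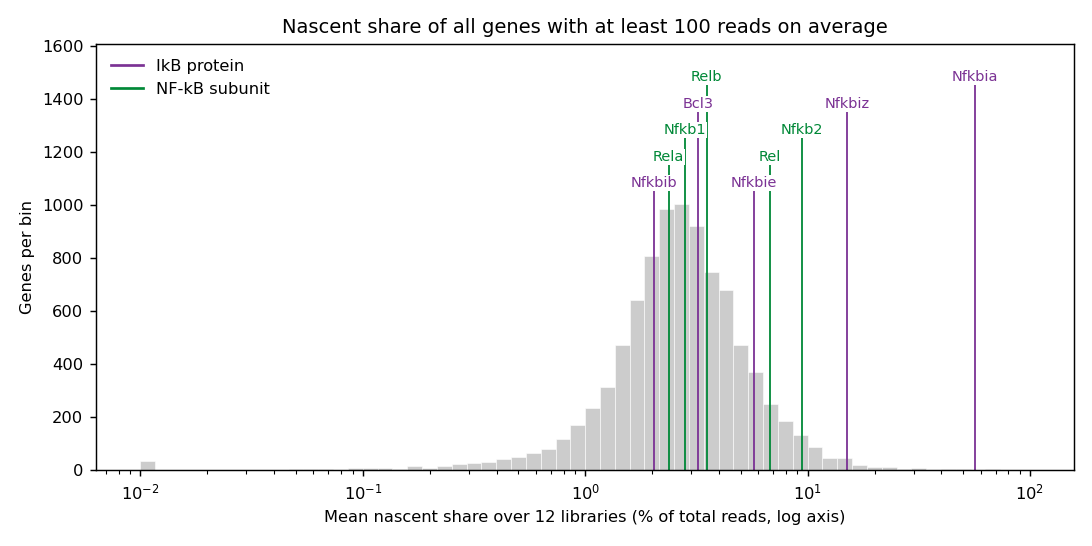
The grey bars count genes by mean nascent share over 12 libraries (x axis, percent of total reads, log scale), with genes at a mean share of 0 placed in the leftmost bar, and vertical lines mark the IkB genes and the NF-kB subunit genes. Nfkbia at 56.4% lies far to the right of the bulk of genes, Nfkbiz, Nfkb2, Rel and Nfkbie lie on the right flank, and the other 5 genes lie near the median of 2.69%.

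Nfkbiz (chr16:55811375-55838899, minus strand), the gene of the nuclear protein IkB-zeta, came next among the IkB genes. Its share was 13.7%, 13.4% and 13.1% in C13 with TDP-43, and 9.18%, 14.3% and 17.7% in C13 with sham. Cultures given DMSO had 13.1%, 16.9% and 7.64% with TDP-43 and 19.7%, 25.6% and 16.2% with sham. The mean was 15.03% ± 4.73 (SD, n = 12, rank 90 of 9204 genes), and Nfkbiz was second of the 10 genes in 9 of 12 libraries. Nfkbie (chr17:45555703-45563169, plus strand), the gene of IkB-epsilon, averaged 5.74% ± 4.28 (SD, n = 12), from 0% in C13 with sham replicate 3 to 12.5% in C13 with sham replicate 2. In the library at 0, none of 1566 reads was nascent, which allows a share of up to 0.192% if reads are independent. The spread between replicates of that group is then beyond counting error, though whether reads are independent was not tested. Bcl3, a nuclear cofactor of the homodimers of precursor-derived subunits, averaged 3.21% ± 2.18 (SD, n = 12) on 2 to 73 nascent reads a library. Nfkbib, the gene of IkB-beta, averaged 2.04% ± 1.85 (SD, n = 12) and was above the share of the whole library in 3 of 12 libraries. Its 3′ end overlaps Ccer2 on the other strand. Since the use of strand in counting is not given in the sources used here, reads of both genes cannot be told apart. Bcl3 overlaps Gm16175 and Gm16174 on the other strand, though not at its 3′ end, so its counts are uncertain too.

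Among the subunits, Nfkb2 (chr19:46304320-46312385, plus strand) had the largest mean share. It was 13.01%, 13.9% and 11.5% in C13 with TDP-43, and 6.53%, 10.9% and 4.67% in C13 with sham. Cultures given DMSO had 8.38%, 9.85% and 10.4% with TDP-43 and 7.98%, 8.71% and 7.07% with sham. The mean was 9.40% ± 2.70 (SD, n = 12, rank 309 of 9204 genes), above the share of the whole library in 12 of 12 libraries, and the largest of the 5 subunits in 8. Rel, the gene of c-Rel, was the largest in the other 4. Its share averaged 6.75% ± 5.64 (SD, n = 12) and ran from 0.102% in DMSO with TDP-43 replicate 3, on 1 nascent read of 984, to 18.4% in DMSO with sham replicate 2. Relb, the partner of the processed Nfkb2 product, averaged 3.52% ± 4.02 (SD, n = 12) and ran from 0% to 11.1%. It was split between low and high libraries in every group but C13 with sham, at 2.80%, 0.356% and 0.221%. Nfkb1 averaged 2.81% ± 1.97 (SD, n = 12) and Rela 2.37% ± 2.58 (SD, n = 12), both near the median of all genes. Nfkb2 overlaps Psd on the other strand at its 3′ end, and Nfkb1 overlaps Gm43430 on its own strand, so counts of these genes are uncertain.

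**Figure D2:**
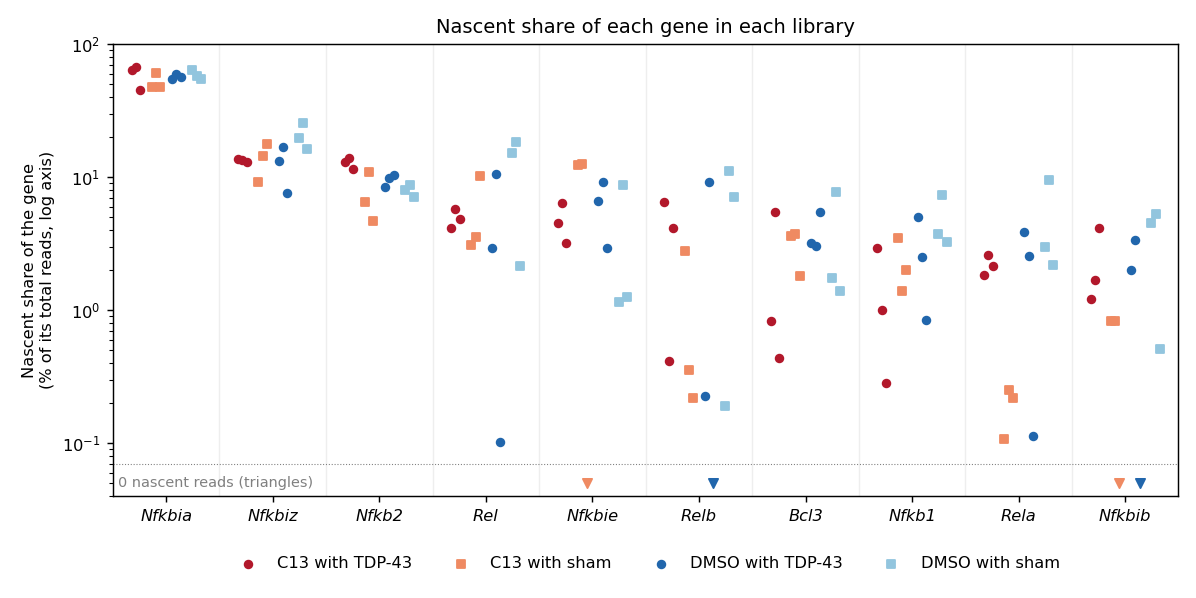
Each point is the nascent share of a gene in a library (y axis, percent of its total reads, log scale), by gene and group, with triangles under the dotted line for libraries with 0 nascent reads of the gene. Nfkbia sits between 45.3% and 67.6% in every library, while the highest share was 181 times the lowest for Rel and 87.9 times the lowest for Rela.

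The main measure of the class comparison, the ratio of median shares, was above 1 in 8 of 12 libraries and is given below. With the reads of each class summed, the IkB genes had a larger nascent share than the subunit genes in 12 of 12 libraries. Of the summed nascent reads of the IkB genes, Nfkbia alone held 63.9% ± 9.32 (SD, n = 12), or 84.1% ± 4.97 with counts divided by the common factor. The summed share of the IkB genes was 22.7% ± 3.45 and that of the subunits 5.28% ± 2.01 (SD, n = 12), and the ratio had a geometric mean of 4.54 and ran from 2.76 to 7.92. By group the ratio averaged 4.00 ± 0.812 in C13 with TDP-43, 5.67 ± 2.08 in C13 with sham, 4.92 ± 1.40 in DMSO with TDP-43 and 4.30 ± 1.43 in DMSO with sham (SD, n = 3 each), with overlapping ranges. Because counts of Nfkbiz and Relb carry a common factor, the sums were also taken with each gene's counts divided by its factor. The ratio then had a geometric mean of 5.08, ran from 2.92 to 8.20 and was above 1 in 12 of 12 libraries. Without Nfkbia the order of the classes depended on this choice in 1 library. With counts as deposited, the ratio without Nfkbia had a geometric mean of 2.13, ran from 1.03 to 5.28 and was above 1 in 12 of 12 libraries. With divided counts it had a geometric mean of 1.30, ran from 0.566 to 3.07 and was above 1 in 11. The library where the order turned was C13 with TDP-43 replicate 1, at 4.12% for the IkB genes without Nfkbia and 7.29% for the subunits. The main measure was taken over medians of the 5 genes of a class. That ratio had a geometric mean of 1.92, ran from 0.430 to 48.8 and was above 1 in 8 of 12 libraries. Nfkbia and Nfkbiz were the IkB genes with a mean share above that of every subunit, and no test is given, since 5 genes of a class are not replicates. The mean shares of Nfkbie, Bcl3 and Nfkbib lay within the range of the subunits, 2.37% to 9.40%, or below it.

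**Figure D3:**
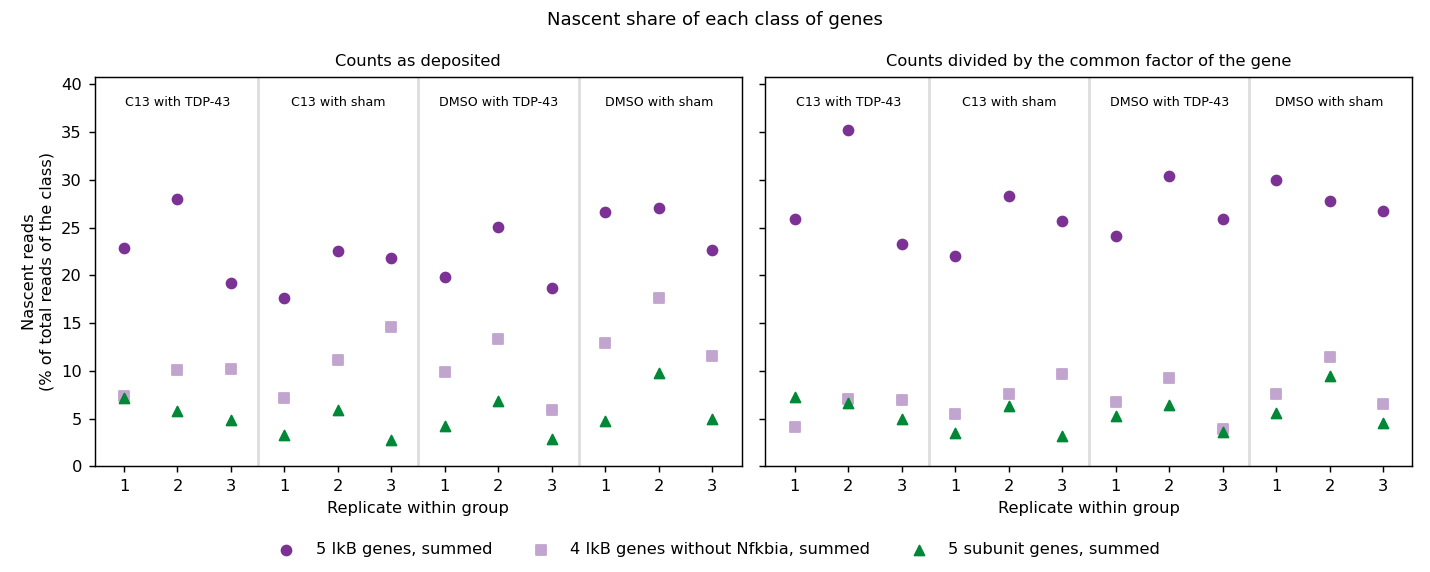
Each point is the percent of the total reads of a class that were nascent in a library (y axis), for 5 IkB genes, 4 IkB genes without Nfkbia and 5 subunit genes, by group and replicate (x axis), with counts as deposited (left) and divided by the common factor of each gene (right). The 5 IkB genes are above the subunit genes in every library of both panels, while without Nfkbia the order in C13 with TDP-43 replicate 1 differs between the panels.

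Sequence near the 3′ end, where the reads of these libraries start, differed between the members. 4-Thiouridine is built in at T positions, and T made up 36.4% of the last 250 bases of the longest coding transcript of Nfkbia and 35.2% of those of Nfkbiz, against a median of 30.4% over 8971 genes. Nfkb2, with the largest share among subunits, had 16.4% T, at percentile 0.58 of these genes, while Rel had the most T of the 10 genes at 43.6%. The motif ATTTA, the core of AU-rich elements that mark short-lived RNA, occurred 2 times in the last 500 bases of Nfkbia, 3 times in those of Nfkbiz and 4 times in those of Nfkb1, and 52.9% of genes had it at least 1 time. The part of T content and of this motif in the shares was not tested.

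No member was called as changed by either treatment in total RNA. By edgeR, 0 of 10 members were called at an adjusted p under 0.05 in any of 7 comparisons of total RNA, where 0.0% of 11827 genes were called, and DESeq2 called 0 members. The 7 comparisons were C13 against DMSO with TDP-43 and with sham, TDP-43 against sham with C13 and with DMSO, TDP-43 against sham averaged over the drug arms, C13 against DMSO averaged over the aggregate arms, and the interaction. In bulk libraries, fewer cells with a gene's RNA and less of it per cell cannot be told apart. In that order, the members at an unadjusted p under 0.05 numbered 1, 1, 0, 0, 0, 0 and 0, against 5.98%, 6.1%, 8.84%, 4.36%, 4.73%, 4.08% and 7.96% of all genes. The groups did not overlap for 1, 0, 1 and 0 members in the first 4 comparisons, against 13.4%, 10.1%, 12.8% and 11.9% of all genes.

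Total Nfkbie was highest in C13 with TDP-43. It had 40.6, 47.0 and 40.1 total CPM in C13 with TDP-43, against 33.8, 20.5 and 19.8 in DMSO with TDP-43. Sham cultures had 28.1, 16.1 and 36.0 total CPM with C13, against 27.7, 29.0 and 16.6 with DMSO. All libraries of C13 with TDP-43 were above all libraries of the other groups. How many of all genes had a group wholly above the others was not counted. For C13 against DMSO with TDP-43 the log2 fold change of Nfkbie was 0.79 (SE 0.34, unadjusted p = 0.0350, edgeR adjusted p = 0.833). For TDP-43 against sham with C13 it was 0.67 (SE 0.34, edgeR adjusted p = 0.600). Without the 2 libraries set apart these were 0.66 and 0.95, with edgeR adjusted p of 0.885 and 0.479.

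Total Nfkbia had 101, 142 and 123 CPM in C13 with TDP-43, and 100.3, 106 and 155 CPM in C13 with sham. Cultures given DMSO had 84.7, 102 and 110.3 CPM with TDP-43 and 92.8, 105 and 96.0 CPM with sham. The groups overlapped. Averaged over the aggregate arms, C13 against DMSO differed by 0.30 in log2 units (SE 0.15, edgeR adjusted p = 0.999), and TDP-43 against sham gave 0.02 (SE 0.15, edgeR adjusted p = 1.0), with a sign that changed when single libraries were left out and a value of 0.08 without the 2 libraries set apart. Total Nfkbiz had 179, 249 and 453 CPM in C13 with sham, against 147, 198 and 194 in DMSO with sham. Its log2 fold change was 0.71 (SE 0.31, unadjusted p = 0.0385, edgeR adjusted p = 0.803). The largest value was from replicate 3, one of the 2 libraries set apart, and without these 2 the log2 fold change was 0.25 (SE 0.28).

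The subunits showed no called difference either. Total Rela, the gene of the main transactivating subunit, averaged 127 ± 15.3 CPM in C13 with TDP-43, 121 ± 17.5 CPM in C13 with sham, 129.8 ± 12.01 CPM in DMSO with TDP-43 and 134 ± 30.6 CPM in DMSO with sham (SD, n = 3 each), and over 12 libraries it had the smallest coefficient of variation of the 10 genes, 14.0%. Averaged over the drug arms, TDP-43 against sham gave log2 fold changes of 0.46 (SE 0.28) for Nfkb1 and 0.35 (SE 0.23) for Relb in total RNA, both with an edgeR adjusted p of 0.948. Total Relb had its lowest mean in C13 with sham, at 124, 42.5 and 62.5 CPM, against 99.4, 109 and 116 CPM in DMSO with sham, and these groups overlapped. Over the 10 members the median log2 fold change of total RNA was 0.01 for TDP-43 and -0.06 for C13, both averaged, against -0.01 for each over all genes tested.

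**Figure D4:**
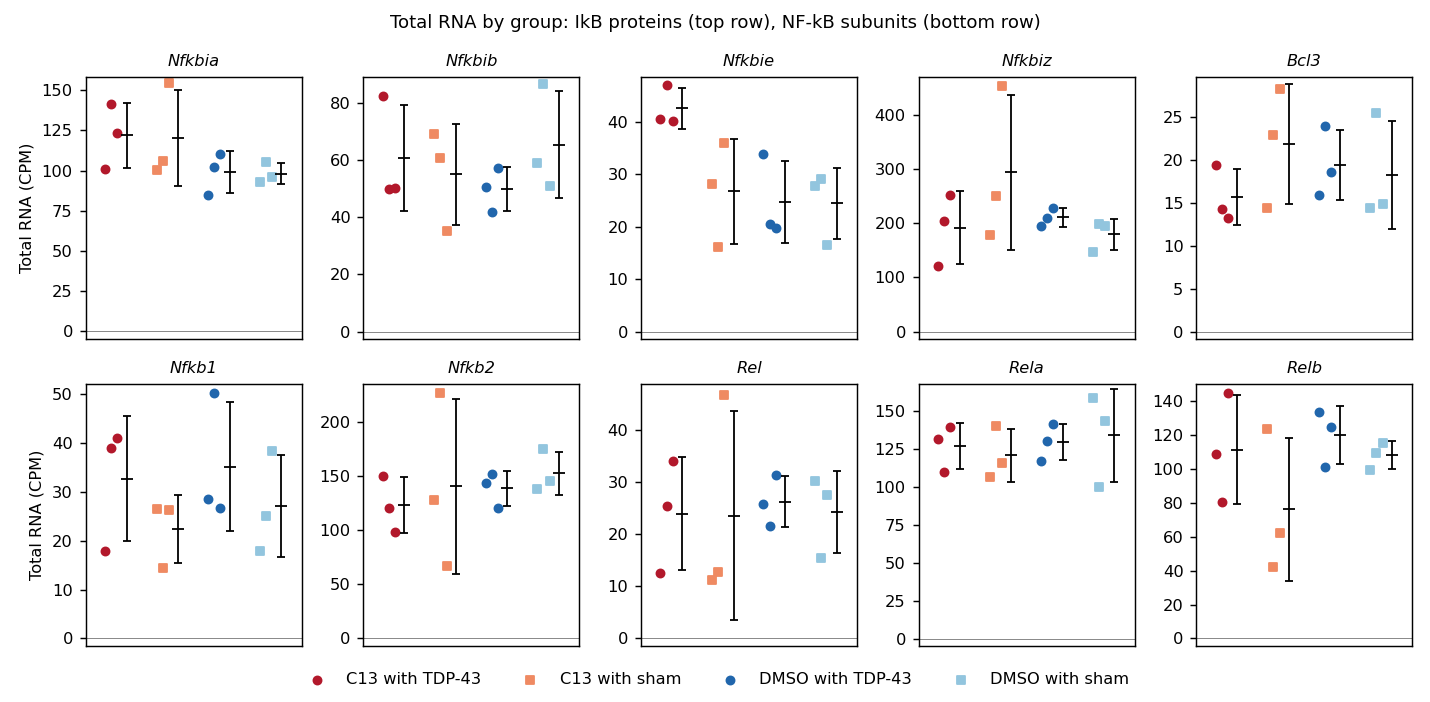
Total RNA of each gene in CPM (y axes from 0 and of different height) by group, with points for libraries and bars for mean ± SD (n = 3). Nfkbie in C13 with TDP-43, at 40.1 to 47.0 CPM, is the only panel in which a group lies wholly above the other 3. How many of all genes have such a group was not counted.

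In nascent RNA, edgeR again called 0 of 10 members at an adjusted p under 0.05 in any of the 7 comparisons. Over all 7078 genes 0.0141% were called for TDP-43 against sham averaged over the drug arms, which is 1 gene, and 0.0% in the other 6 comparisons. DESeq2 called 0 members. In the order above, the members at an unadjusted p under 0.05 numbered 0, 3, 2, 0, 0, 1 and 1, against 4.59%, 6.89%, 8.45%, 3.19%, 5.59%, 5.96% and 7.59% of all genes. The groups did not overlap for 0, 1, 2 and 2 members in the first 4 comparisons, against 10.4%, 14.3%, 13.1% and 10.3% of all genes. Rela (chr19:5637483-5648130, plus strand) had the smallest p. It had 73.3, 83.4 and 125.7 nascent CPM in C13 with TDP-43, against 3.38, 12.4 and 21.8 in C13 with sham. It had 150.6, 92.9 and 9.64 in DMSO with TDP-43, against 124, 119 and 111 in DMSO with sham. All C13 with sham libraries were thus below all libraries of C13 with TDP-43 and of DMSO with sham, while DMSO with TDP-43 replicate 3 was within the range of C13 with sham. The counts behind these values were 2, 7 and 11 nascent reads of Rela in C13 with sham, against 150, 351 and 121 in DMSO with sham.

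For C13 against DMSO with sham, the log2 fold change of nascent Rela was -3.23 (SE 1.04, unadjusted p = 0.00631, edgeR adjusted p = 0.672). For TDP-43 against sham with C13 it was 2.91 (SE 1.03, unadjusted p = 0.0116, edgeR adjusted p = 0.530). The interaction of drug and aggregates was 3.39 (SE 1.38, edgeR adjusted p = 0.602). Without the 2 libraries set apart the first 2 of these were -3.96 and 3.63, with edgeR adjusted p of 0.482 and 0.403. The lowest adjusted p of a member in any alternative, 0.0719, came from DESeq2 for Rela in C13 against DMSO with sham. Total Rela had 107, 141 and 116 CPM in C13 with sham, against 159, 100.0 and 143.7 in DMSO with sham, and these groups overlapped.

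Nascent Nfkbia and Nfkbiz had the other unadjusted p under 0.05 for C13 against DMSO with sham, and both values rested on 1 library. Nascent Nfkbia had 1399.8, 2240.2 and 6390.2 CPM in C13 with sham, against 1529.8, 756 and 1857 in DMSO with sham. Its log2 fold change was 1.28 (SE 0.53, unadjusted p = 0.0284, edgeR adjusted p = 0.672), and without C13 with sham replicate 3, the highest library, it was 0.30. Nascent Nfkbiz had 480.1, 1253 and 6896 CPM in C13 with sham, against 752, 633 and 1116 in DMSO with sham. Its log2 fold change of 1.79 (SE 0.69, unadjusted p = 0.0184, edgeR adjusted p = 0.672) was -0.05 without that library. The same library set the values for TDP-43 against sham with C13, where Nfkbiz gave -1.70 (SE 0.69, edgeR adjusted p = 0.565) with it and 0.11 without it. The nascent share of Nfkbia in that library was 47.9%, below its mean over the 12 libraries. The library as a whole also had the lowest nascent share, 1.88%. Divided by the share of the whole library, Nfkbia was at 25.4 there. That ratio was 14.9 and 21.1 in C13 with sham replicates 1 and 2, and 18.6, 8.08 and 19.8 in DMSO with sham.

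Further members differed without passing any threshold. For TDP-43 against sham with DMSO, the members whose groups did not overlap were Nfkb2 and Nfkbie. Nascent Nfkb2 had 396, 417 and 755 CPM in DMSO with TDP-43, against 286, 190.4 and 366 in DMSO with sham (log2 fold change 0.90, SE 0.56, edgeR adjusted p = 1.0). The highest of these is from replicate 3, a library set apart, and without the 2 libraries set apart the log2 fold change of Nfkb2 was 0.52. Nascent Nfkbie had 73.6, 52.3 and 34.7 CPM in DMSO with TDP-43, against 8.25, 31.8 and 7.37 in DMSO with sham (log2 fold change 1.74, SE 1.25, edgeR adjusted p = 1.0, and 1.97 without these 2). Nascent Nfkbib had 30.5, 24.3 and 87.0 CPM in C13 with TDP-43, against 16.9, 17.7 and 0 in C13 with sham, and its log2 fold change of 2.01 (SE 1.48) is fitted against a library with 0 reads, which is one of the 2 set apart. Without these it was 1.50. Nascent Relb ran from 0 to 290.1 CPM over the 12 libraries, with 4.95 and 290.1 CPM in replicates of the same group, DMSO with sham. No difference of Relb between groups was detectable beside this spread.

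**Figure D5:**
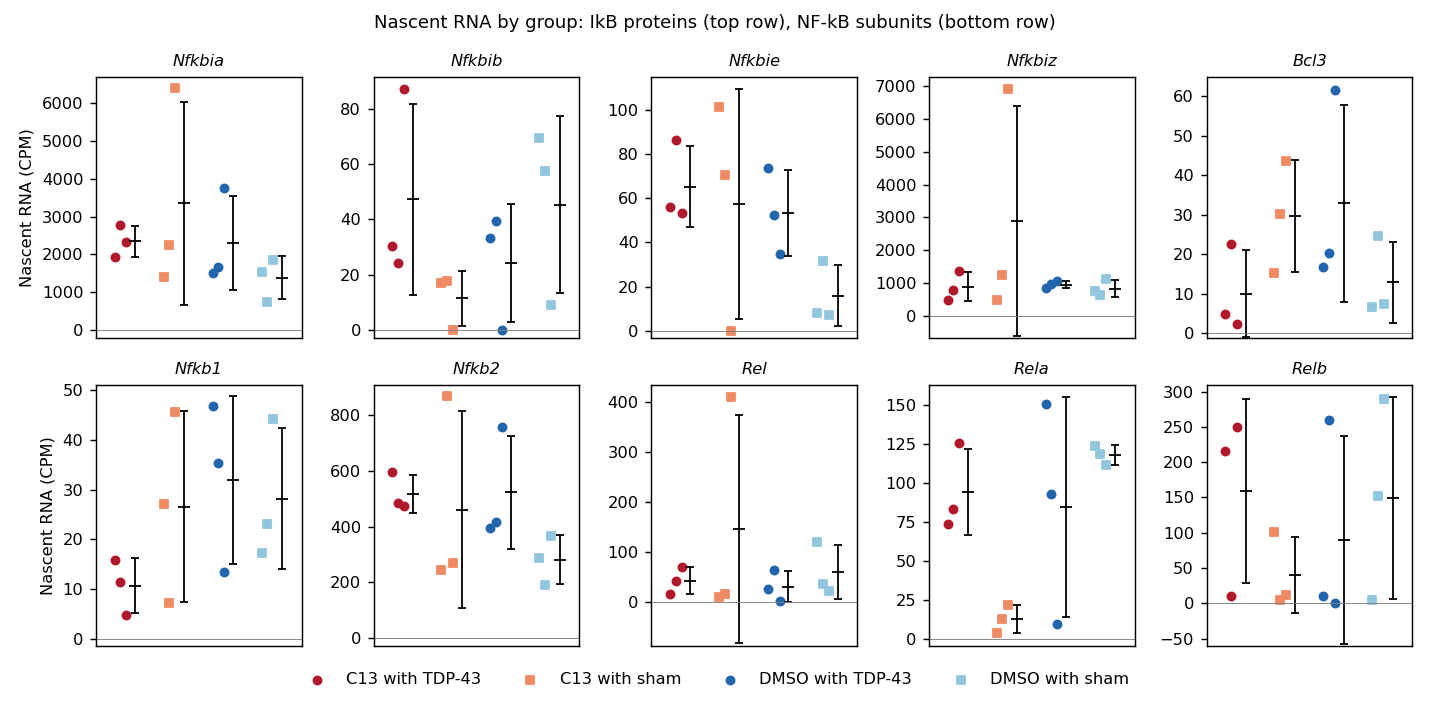
Nascent RNA of each gene in CPM (y axes of different height, grey line at 0) by group, with points for libraries and bars for mean ± SD (n = 3). Rela in C13 with sham, at 3.38 to 21.8 CPM, lies below C13 with TDP-43 and DMSO with sham, and the means of Nfkbia and Nfkbiz in C13 with sham are drawn up by 1 library.

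Scaling within the nascent table removes any change shared by all nascent RNA. Nascent reads made up 3.20%, 2.85% and 1.88% of the libraries of C13 with sham, against 3.40%, 7.11% and 2.74% in DMSO with sham. These shares overlapped, and the highest, 7.11%, was from DMSO with sham replicate 2. How far the medians that follow rest on that library was not tested. When nascent counts were scaled with the size factors of total RNA instead, the median over all 7078 genes was -1.02 (log2) for C13 against DMSO with sham, in place of -0.04, and 0.35 for TDP-43 against sham with C13, in place of 0.04. Nascent Rela then had log2 fold changes of -4.56 and 3.50 in these comparisons, while Nfkbia had 0.11 and Nfkbiz 0.25 for C13 against DMSO with sham. Relative to the median of all genes in C13 against DMSO with sham, Nfkbia and Nfkbiz were higher and Rela lower under either scaling. A change of size factors moves all genes of a library together, so this order is no separate test. Scaled within the nascent table, the values of Nfkbia and Nfkbiz rested on C13 with sham replicate 3, as given above. Without that library they were 0.30 and -0.05.

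Nascent reads were also set against the other reads of the same gene in the same library, in a fit with the library as a term. Here too edgeR called 0 of 10 members in the 7 comparisons, and over all genes 0.0% in 6 of them and 0.0141% for TDP-43 against sham averaged over the drug arms. The members at an unadjusted p under 0.05 numbered 0, 1, 1, 0, 0, 0 and 1, against 3.55%, 5.2%, 5.71%, 2.66%, 4.03%, 4.01% and 5.27% of all genes. For Rela the log2 ratio of nascent to other reads differed by -3.37 (SE 1.04, unadjusted p = 0.00490, edgeR adjusted p = 0.908) for C13 against DMSO with sham. It differed by 3.04 (SE 1.03, edgeR adjusted p = 0.709) for TDP-43 against sham with C13. Nfkb2 differed by 0.79 (SE 0.40, unadjusted p = 0.0671, edgeR adjusted p = 1.0) for TDP-43 against sham averaged over the drug arms. Nfkbia differed by 0.31 (SE 0.36) for TDP-43 and by 0.29 (SE 0.36) for C13, both averaged and both with an edgeR adjusted p of 1.0.

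The kinases and adaptors upstream of IkB, a list of 19 genes, and 24 target genes of NF-kB were set beside the members. In each list edgeR called 0 genes in either direction in the 7 comparisons of either table. For TDP-43 against sham averaged over the drug arms, 18 of 19 upstream genes had a higher value in total RNA (median log2 fold change 0.18), and 2 had an unadjusted p under 0.05. Of all 11827 genes tested, 48.8% had a higher value and 4.73% had an unadjusted p under 0.05. Ikbke, an IkB kinase relative that acts in antiviral signalling, averaged 191 ± 14.2 total CPM in C13 with TDP-43, against 122 ± 47.6 in C13 with sham. It averaged 222 ± 12.98 total CPM in DMSO with TDP-43, against 185 ± 26.8 in DMSO with sham (SD, n = 3 each). Ikbkb, the catalytic subunit that marks IkB-alpha, averaged 31.3 ± 5.95 total CPM in C13 with TDP-43, against 21.7 ± 4.17 in C13 with sham. It averaged 32.3 ± 4.25 total CPM in DMSO with TDP-43, against 22.3 ± 7.14 in DMSO with sham (SD, n = 3 each). Their log2 fold changes were 0.46 (SE 0.18) and 0.53 (SE 0.21), with an edgeR adjusted p of 0.948 each. In nascent RNA 7 of 15 tested upstream genes had a higher value, against 49.1% of all genes. Map3k7, the kinase TAK1 that activates the IkB kinases, averaged 30.3 ± 5.35 nascent CPM in C13 with TDP-43, against 97.0 ± 109 in C13 with sham. It averaged 51.6 ± 35.8 nascent CPM in DMSO with TDP-43, against 142 ± 54.0 in DMSO with sham (SD, n = 3 each). Traf2, an adaptor of tumour necrosis factor receptors, had a log2 fold change of 0.81 (SE 0.53) in nascent RNA.

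Of the target genes, 16 of 22 tested had a higher value with TDP-43 in total RNA (median log2 fold change 0.23), 7 of them at an unadjusted p under 0.05, and 15 of 19 did in nascent RNA, with a median of 0.41. Over all genes tested these medians were -0.01 and -0.02, the shares with a higher value were 48.8% and 49.1%, and 4.73% had an unadjusted p under 0.05 in total RNA. In nascent RNA 1 of the 19 target genes had an unadjusted p under 0.05 by edgeR, against 5.59% of all genes. Total Cxcl10, a chemokine induced by interferon and NF-kB, and Cxcl2, a neutrophil chemokine, had the smallest p in total RNA (unadjusted p = 6.59e-05 and 0.00119, edgeR adjusted p = 0.325 and 0.828). In nascent RNA these were Cxcl2 and Zc3h12a, the gene of an RNase that degrades cytokine RNA, which differed by 1.28 (SE 0.35) and 1.50 (SE 0.79) on the log2 scale. Nfkbia is a target gene as well as an IkB gene, and its log2 fold change of 0.02 (SE 0.15) in total RNA had no settled sign, as given above. By nascent share, Tnf was the only listed target above Nfkbia, at 63.2% ± 7.93, followed by Ier3 at 47.2% ± 9.90, Ccl4 at 32.3% ± 9.19 and Cxcl2 at 22.8% ± 10.4 (SD, n = 12 each). The median share was 6.09% over 21 target genes with enough reads, 5.74% over the IkB genes, 3.52% over the subunits and 2.78% over 18 upstream genes.

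For each member the gene whose total RNA was most alike over the 12 libraries was taken by Pearson's r of log2 CPM among 9204 genes, with 1 CPM added before the log. Nfkbia was most like Samd8 (r = 0.897), Nfkbiz most like Pag1 (r = 0.899) and Rela most like Trak2 (r = 0.879). For the other 7 members the highest r ran from 0.872, between Nfkbie and Sigirr, to 0.964, between Bcl3 and Chaf1b. No member was most like another member. These are the highest of 9204 values over libraries that share 2 outlying samples and differ in depth, and describe these libraries only.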

How the data were processed

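RNA from 12 libraries of SIM-A9 cells was alkylated with iodoacetamide and made into 3′ end libraries, per the labels' protocols. The authors deposited raw read counts per Ensembl gene in a nascent and a total table of 30994 genes each, on build GRCm38 (submitters' processing notes). The rule for nascent reads, the aligner and the counting tool were not given in the sources used here. Every nascent count was at or below its total count.

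Each library was assigned to its group by the labels. The 10 members and the other gene lists were chosen with earlier results of these data known. Symbols were matched for 30922 identifiers with GENCODE M21. Counts in each table were filtered (filterByExpr: 7078 nascent and 11827 total genes), scaled by TMM and compared by edgeR 4.0.16 (R 4.3.3), by its quasi-likelihood test over 4 group means of all 12 libraries, with Benjamini-Hochberg adjustment over all genes and a threshold of 0.05. A joint fit of nascent and other reads had the library as a term. Scripts were tested on simulated data. Nascent shares have 95% Clopper-Pearson intervals, and a count of 0 allows a share of up to 3 counts of the total. No replicates were one library deposited 2 times, since their counts differed with a chi-square of 70.55 or more per degree of freedom. Alternatives were DESeq2 1.42.0, its size factors, no filter, a replicate block, leaving out libraries, only the groups compared and, for nascent counts, the library sizes of the total table. Division of counts by a common factor, also in the class sums, and the class ratio without Nfkbia were added after seeing the data. The rule for named genes took all 10 members and, of each other list and table, the 2 genes with the smallest p for TDP-43 against sham averaged over the drug arms, besides any gene past the threshold (none was).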

Additional observations from a re-analysis of the deposited data

How the results depend on the processing

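No member was called in any of 3650 tests of members under the alternatives, where the lowest adjusted p was 0.0719. Of 411 alternative values of the 23 member fold changes behind the text, 402 kept their direction. The exceptions were nascent Nfkbiz, at -0.0184 for C13 against DMSO with sham and 0.11 for TDP-43 against sham with C13 without the 2 libraries set apart (-0.0475 to 2.29 and -2.20 to 0.11 without single libraries, with the change of sign when C13 with sham replicate 3 was left out), and total Nfkbia for averaged TDP-43, from -0.0447 to 0.128 when single libraries were left out. The ratio of median nascent shares, IkB genes over subunits, was 1.43 to 2.20 without single libraries, 3.75 without Nfkbib and 1.43 without Nfkbia.

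Counts over all genes follow in 1 order: C13 with TDP-43, C13 with sham, TDP-43 with C13, TDP-43 with DMSO, averaged TDP-43, averaged C13 and the interaction. Against 0, or 1 for averaged TDP-43 in nascent RNA, DESeq2 called 18, 29, 77, 7, 13, 10 and 46 nascent genes and 30, 41, 99, 8, 33, 21 and 108 total genes. Without the filter edgeR called 10, 29, 30, 6, 18, 11 and 38 nascent genes and 33, 59, 124, 10, 33, 18 and 124 total genes, and the cause was not tested. Leaving out 1 library gave 0 to 1 nascent genes for TDP-43 with C13, averaged TDP-43 and the interaction, and 0 to 2, 0 to 4, 0 to 1, 0 to 2 and 0 to 3 total genes for C13 with sham, TDP-43 with C13, averaged TDP-43, averaged C13 and the interaction. In the joint fit it gave 0 to 1 for TDP-43 with C13, TDP-43 with DMSO, averaged TDP-43 and averaged C13. Without the 2 libraries set apart, 1 total gene was called for TDP-43 with C13 and 1 for averaged TDP-43. With only the groups compared, 1 was called for TDP-43 with C13. Counts divided by their common factor gave 2 for the interaction in total RNA.

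With the replicate number as a block, edgeR called 0 nascent genes for averaged TDP-43 and 2 total genes for the interaction, and no other count moved. Deviations from the group means correlated little between same-numbered libraries, at -0.0322 to 0.0585 in nascent RNA (mean 0.0111) and -0.0292 to 0.126 in total RNA (mean 0.0307). Between libraries of different number they correlated at -0.0546 to 0.0466 (mean -0.00546) and -0.170 to 0.126 (mean -0.0153). Few nascent reads limit several members. The lowest libraries held 0 for Nfkbib, Nfkbie and Relb, 1 for Rel, 2 for Bcl3 and Rela, and 4 for Nfkb1. The part of depth in this was not tested.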

Other observations

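Nfkbid, a further nuclear IkB gene that is not among the 10 members and was looked at after its values were seen, varied more than Nfkbiz. Its nascent share was 44.2%, 7.89% and 6.22% in C13 with TDP-43, and 5.26%, 1.01% and 5.88% in C13 with sham. Cells given DMSO had 16.7%, 34.7% and 0% with TDP-43, and 28.6%, 19.7% and 14.8% with sham. The 3 libraries of C13 with sham lay below the 3 of DMSO with sham, on 3, 3 and 6 nascent counts of Nfkbid, against 267, 156 and 69. The total counts behind these were 57, 297 and 102, against 933, 792 and 465. Whole libraries had nascent shares of 1.88% to 3.20% and 2.74% to 7.11%. By nascent CPM, 14.3% of all 7078 genes did not overlap in this comparison, and by nascent share this was not counted. All counts of Nfkbid are multiples of 3, as for Relb. Divided by 3, the nascent counts are 1, 1 and 2, against 89, 52 and 23.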
